A study of Mus musculus with 18 samples.

Results

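Tight junction genes of the kidney were followed across folic acid injury: 9 claudins (Cldn1, Cldn2, Cldn3, Cldn4, Cldn7, Cldn8, Cldn10, Cldn16 and Cldn19) and occludin (Ocln). They were taken by symbol from the 37991 gene rows of the count tables, and all 10 had a row and passed the filter on low counts. Whole kidneys of male Balb/c mice gave 18 RNA-seq libraries, 3 from untreated mice and 3 each from mice 1, 2, 3, 7 and 14 days after 1 intraperitoneal dose of folic acid (250 mg/kg in sodium bicarbonate). High-dose folic acid injures the renal tubule, and the time course runs from that injury towards repair and fibrosis. No group received the bicarbonate alone, so folic acid and its vehicle cannot be told apart. The labels name no genotype beyond the strain, and whether every library is from its own mouse is not said, so p-values measure only the spread among samples of a group, which may be technical.

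Claudins are membrane proteins that span the space between neighbouring epithelial cells and set which ions pass between them. Pore-forming, or leaky, claudins open a selective path: claudin 2 passes sodium and water in the proximal tubule, claudin 10 is made as forms that pass chloride or sodium in the proximal tubule and thick ascending limb, and claudins 16 and 19 act together in the thick ascending limb in the recovery of calcium and magnesium. Sealing claudins tighten the path: claudins 3, 4, 7 and 8 lie in the distal segments and collecting duct, and claudin 1 is found in the kidney mainly in the parietal epithelium of Bowman's capsule. Occludin is a tight junction protein of all tubule segments.

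Reads assigned to genes numbered 8.68 to 54.6 M (1e6 reads) per library, and the smallest library was day 2 replicate 2. Mitochondrial transcripts made up 59.0 to 75.6% of them, which left 2.83 to 17.2 M for all other genes. Levels are counts per M reads (CPM) after TMM scaling, and a value of n = 3 is a mean ± SD over libraries. A change was called where edgeR's quasi-likelihood test gave a p, adjusted by Benjamini-Hochberg over all 16824 genes tested, under 0.05. The tubule markers of the samples moved with time. Of 16 proximal tubule markers, 15, 15, 13, 15 and 2 fell on days 1, 2, 3, 7 and 14 (0 at day 14 without day 14 replicate 3), and of 10 thick ascending limb markers tested, 8, 8, 5, 1 and 0 fell. The share of all tested genes that fell was 5.56%, 5.98%, 3.43%, 3.85% and 0.309% on those days. Of 10 injured tubule markers, 9 rose on each of days 1, 2, 3 and 7 and 5 rose at day 14, where 5.09%, 7.19%, 4.18%, 3.87% and 1.24% of all genes did. In whole kidney, fewer cells of a segment and less RNA per cell cannot be told apart. Replicate 3 of day 14 stood apart from the other two of its group: its proximal tubule markers summed to 4479 CPM against 9114 and 11097, and its injured tubule markers to 3068.5 CPM against 1087 and 831. It held the highest day 14 values of Cldn1, Cldn3 and Cldn4 and the lowest of Cldn2 and Cldn10, and its part in the day 14 results beyond the fits without it was not tested.

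Among the tight junction genes, Cldn1, Cldn3, Cldn4, Cldn8, Cldn10 and Cldn16, differed somewhere across the 6 groups (6 of 10, against 19.7% of all genes tested). At day 1, 4 of 10 had changed, against 10.7% of all genes: Cldn1 and Cldn3 rose, and Cldn8 and Cldn10 fell. At day 2, 4 of 10 had changed, against 13.2% of all genes: Cldn1, Cldn3 and Cldn4 rose, and Cldn10 fell. The same 4 genes were called in the same directions at day 3, where 7.61% of all genes had changed. At day 7, 3 of 10 had changed, against 7.72% of all genes: Cldn1 and Cldn3 rose, and Cldn10 fell. At day 14, 1 of 10 had changed, Cldn10, which was still lower, against 1.55% of all genes. These 5 comparisons share the untreated libraries and are not independent.

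**Figure D1:**
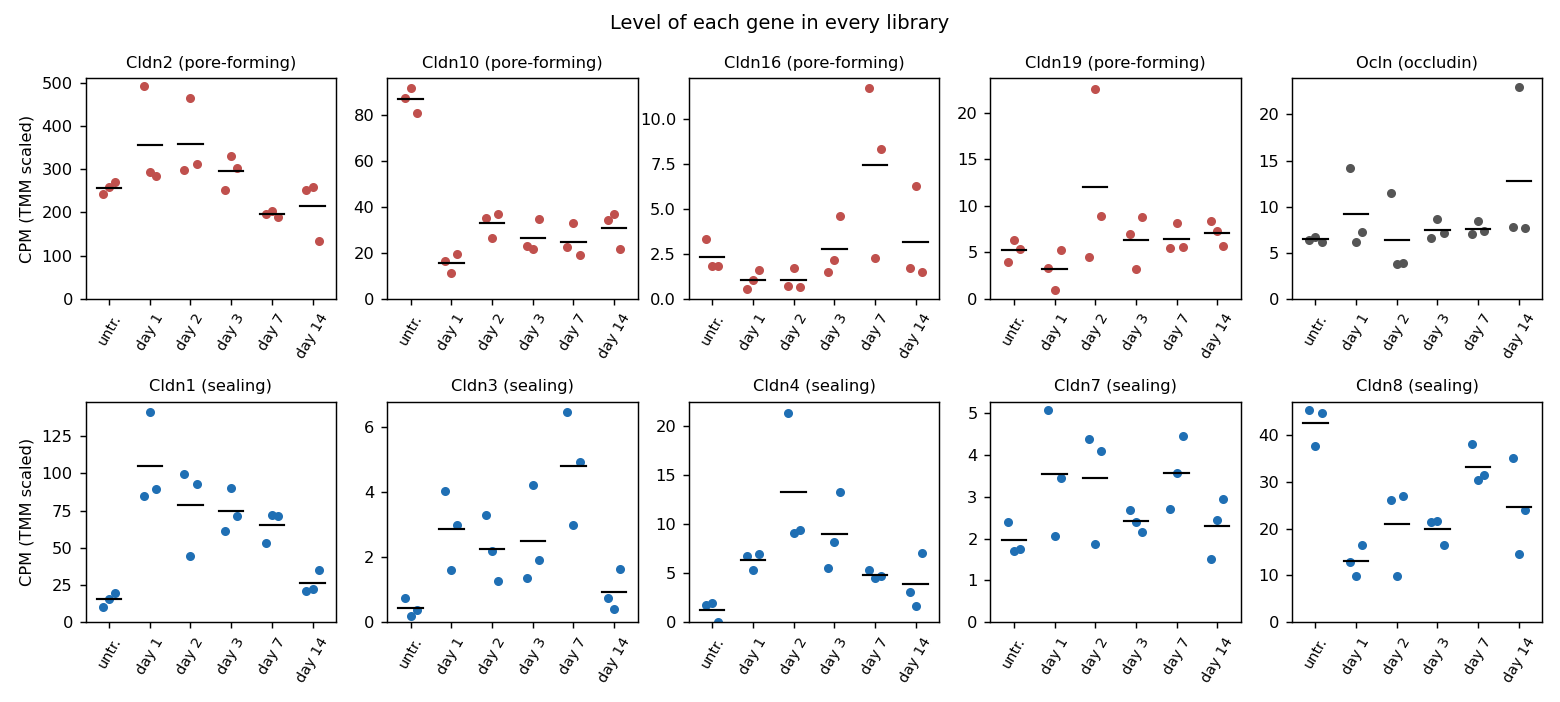
Level of each gene in CPM after TMM scaling (vertical axis, linear and starting at 0, scaled per gene) in the 3 libraries of each group (points, replicates 1 to 3 from left to right), with the group mean as a line; pore-forming claudins are red, sealing claudins blue and occludin grey. Every one of the 15 libraries after folic acid lies above the 3 untreated ones for Cldn1 and below them for Cldn10.

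In untreated kidney the pore-forming claudins of the proximal tubule were the most abundant of the 10 per unit of transcript length. Levels of different genes were set side by side as CPM per kb of exon. Cldn2 stood at 77.5 ± 4.18 CPM per kb (n = 3), Cldn10 at 33.5 ± 2.16 and Cldn8 at 18.02 ± 1.82, and the libraries of each of these 3 genes were apart from those of the next. The other 7 lay close together, from Cldn1 at 3.17 ± 0.975 CPM per kb through Cldn16, Ocln, Cldn19, Cldn7 and Cldn4 to Cldn3 at 0.351 ± 0.231, and each overlapped its neighbour in that order. Cldn2 remained first in every group. Second place was held by Cldn1 at day 1 (21.7 ± 6.47 CPM per kb), where its libraries did not overlap those of Cldn2 or of Cldn10 below it. At days 2 and 3 Cldn1 was again second but overlapped Cldn10, and at day 7 Cldn8, Cldn1 and Cldn10 overlapped in turn behind Cldn2.

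Cldn2 (ENSMUSG00000047230), the cation and water pore of the proximal tubule, did not pass the test on any day, while the markers of that segment fell. Its level was 243, 260 and 270 CPM in the untreated libraries, 493, 293 and 284 at day 1, and 298, 465 and 312 at day 2. It was 252, 331 and 302 CPM at day 3, 195, 202 and 189 at day 7, and 253, 259 and 133 at day 14. All libraries of days 1 and 2 lay above the untreated ones and all of day 7 below them, and days 3 and 14 overlapped them. The log2 fold change was 0.47 ± 0.27 (SE) at day 1 (adjusted p = 0.302), 0.48 ± 0.27 at day 2 (adjusted p = 0.264) and 0.20 ± 0.26 at day 3 (adjusted p = 0.737). It was -0.40 ± 0.27 at day 7 (adjusted p = 0.425) and -0.26 ± 0.26 at day 14 (adjusted p = 0.707), and both of these turned positive with scaling by library totals, at 0.28 and 0.03. With that scaling the day 3 value passed (adjusted p = 0.0376), but it also moved the median of all genes up by 0.58 on the log2 scale.

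The phosphate transporter Slc34a1 of the same cells fell from 707 ± 91.2 CPM to 39.7 ± 8.08 at day 1 (log2 fold change -4.16 ± 0.30, adjusted p = 2.26e-07). The endocytic receptor Lrp2, megalin, fell from 1924 ± 231 to 396 ± 7.04 CPM (log2 fold change -2.27 ± 0.24, adjusted p = 7.89e-06). Within each library, the log2 ratio of Cldn2 to Slc34a1 was -1.45 ± 0.23 in untreated kidney (n = 3, 0.1 CPM added to both genes). On days 1, 2, 3, 7 and 14 it was 3.13 ± 0.68, 2.14 ± 0.77, 0.30 ± 0.08, -0.07 ± 0.45 and -0.98 ± 0.17. All 15 treated libraries lay above the untreated ones in this ratio. No p is given for it or for the ratios below, because the pairs were chosen with these data known.

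Cldn10 (ENSMUSG00000022132), the pore claudin shared by the proximal tubule and the thick ascending limb, fell on every day measured. It stood at 87.6, 91.9 and 80.8 CPM in untreated kidney and at 16.3, 11.2 and 19.4 at day 1. At day 2 it was 35.2, 26.5 and 37.0 CPM, at day 3 23.0, 21.6 and 34.6, at day 7 22.6, 32.8 and 18.8, and at day 14 34.3, 37.1 and 21.6. The highest treated library, 37.1 CPM at day 14, was less than the lowest untreated one. The log2 fold change was -2.47 ± 0.31 at day 1 (5.55-fold lower, adjusted p = 4.75e-05), -1.40 ± 0.30 at day 2 (adjusted p = 0.00451) and -1.72 ± 0.30 at day 3 (adjusted p = 0.00166). It was -1.81 ± 0.30 at day 7 (adjusted p = 0.00123) and -1.49 ± 0.30 at day 14 (2.80-fold lower, adjusted p = 0.0143). The day 14 call was lost without untreated replicate 1 (adjusted p = 0.0549), untreated replicate 2 (0.0616) or day 14 replicate 3 (0.0914), with library totals (0.0683) and in a fit of the 2 groups alone (0.0527).

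Cldn10 and Cldn2 are both made in the proximal tubule, and their ratio within a library moved. The log2 ratio of Cldn10 to Cldn2 was -1.57 ± 0.15 in untreated libraries, and -4.49 ± 0.55, -3.43 ± 0.61, -3.50 ± 0.40, -3.02 ± 0.36 and -2.76 ± 0.14 on days 1, 2, 3, 7 and 14 (n = 3). No treated library reached the untreated range. Measured against the salt transporter Slc12a1 of the thick ascending limb, the log2 ratio of Cldn10 was -2.64 ± 0.58 in untreated kidney, and -0.36 ± 0.51, 0.08 ± 0.66, -2.18 ± 0.19, -3.57 ± 0.38 and -3.95 ± 0.27 on those days. Cldn10 has separate start sites for its forms, and the gene count adds them, so the proximal and the loop form were not separated. The RefSeq promoters of the first and the second start site are shown because the counts add transcripts from both (250 bases up to the start, GRCm38.p6, plus strand, chr14:118787621-118787870 and chr14:118854700-118854949). Capitals mark the GC box GGGCGG on either strand, a letter string found in 32.7% of 32851 promoters.
Cldn10 start 1: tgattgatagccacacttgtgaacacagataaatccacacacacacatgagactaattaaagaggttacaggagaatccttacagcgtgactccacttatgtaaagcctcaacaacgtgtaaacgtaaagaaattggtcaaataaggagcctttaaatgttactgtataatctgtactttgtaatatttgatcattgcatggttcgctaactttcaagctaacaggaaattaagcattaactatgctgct
Cldn10 start 2: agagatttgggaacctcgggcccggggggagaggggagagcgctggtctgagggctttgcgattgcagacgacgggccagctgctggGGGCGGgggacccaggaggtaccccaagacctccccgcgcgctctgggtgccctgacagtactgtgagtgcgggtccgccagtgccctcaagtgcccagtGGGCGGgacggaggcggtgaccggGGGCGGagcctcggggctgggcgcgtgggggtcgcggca
The first window held no GC box and is 36.0% G and C, and the second held 3 and is 72.4% G and C, where the median promoter has 52.4%.

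Cldn16 (ENSMUSG00000038148) and Cldn19 (ENSMUSG00000066058), the partners of the calcium and magnesium path, did not pass in any comparison with untreated kidney. Cldn16 was at 3.32, 1.83 and 1.82 CPM in untreated kidney, 0.525, 1.03 and 1.61 at day 1, 0.693, 1.69 and 0.653 at day 2, and 1.46, 2.12 and 4.62 at day 3. At day 7 it was 11.7, 2.25 and 8.33 CPM and at day 14 it was 1.69, 6.24 and 1.47, with 1 day 7 library and 2 day 14 libraries inside or under the untreated range. Every library of days 1 and 2 was below the untreated ones, at log2 fold changes of -1.11 ± 0.69 (adjusted p = 0.355) and -1.31 ± 0.73 (adjusted p = 0.262). At day 7 it was 1.68 ± 0.69 (adjusted p = 0.156), and with library totals this value passed at 2.33 (adjusted p = 0.0239). Over the 6 groups together the gene differed (adjusted p = 0.0266), at 10 to 355 reads per library.

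Cldn19 was at 3.97, 6.33 and 5.39 CPM in untreated kidney, 3.32, 0.922 and 5.25 at day 1 and 4.50, 22.6 and 8.92 at day 2. Replicate 2 of day 2, the smallest library, held the 22.6 CPM, from 134 reads, and stood above all others. At day 3 Cldn19 was at 7.00, 3.18 and 8.82 CPM, at day 7 at 5.43, 8.12 and 5.59, and at day 14 at 8.41, 7.26 and 5.67. Each day overlapped the untreated range. The log2 fold changes were -0.73 ± 0.58, 1.17 ± 0.58, 0.28 ± 0.57, 0.28 ± 0.58 and 0.44 ± 0.58 on days 1, 2, 3, 7 and 14, with adjusted p from 0.206 to 0.84. Without day 2 replicate 2, the day 2 value was 0.35 (adjusted p = 0.782). Cldn19 shares 90 exonic bases with Gm12927 on the other strand, and it is not given whether the counting used strand, so its reads may hold some of that gene.

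Markers of the thick ascending limb fell at the early times. These claudins did not pass there, which does not show that they held, and every Cldn16 library of days 1 and 2 was below the untreated ones. At day 1, 8 of the 10 markers tested were called lower, and the median log2 fold change of the 10 was -2.57. Slc12a1, the salt transporter used in the ratios below, fell further than that median. It was at 567 ± 191 CPM in untreated kidney and at 21.5 ± 10.2 at day 1 (log2 fold change -4.72 ± 0.48, adjusted p = 4.79e-06). Umod, which encodes uromodulin, went from 869 ± 143 to 217 ± 85.8 CPM (log2 fold change -2.00 ± 0.30, adjusted p = 0.000255). The log2 ratio of Cldn19 to Slc12a1 was -6.69 ± 0.28 in untreated kidney, and -2.89 ± 0.69, -1.66 ± 1.99, -4.31 ± 0.37, -5.49 ± 0.22 and -6.04 ± 0.06 on days 1, 2, 3, 7 and 14. The lowest treated library of this ratio, at day 14, was still above the highest untreated one. The ratio of Cldn16 to Slc12a1 was -7.86 ± 1.03 in untreated kidney, and -4.21 ± 1.26, -4.92 ± 1.62, -5.53 ± 0.54, -5.54 ± 1.51 and -7.48 ± 1.14 on the same days. For Cldn16 the libraries of days 7 and 14 overlapped the untreated ones. The calcium receptor Casr, which acts on these claudins in the thick ascending limb, fell from 21.9 ± 2.10 to 3.97 ± 2.42 CPM at day 1 (log2 fold change -2.46 ± 0.39, adjusted p = 0.000383). Casr was also lower at days 2 and 3, and it was at 17.2 ± 5.28 CPM at day 7 (adjusted p = 0.655). Cldn14, a claudin that blocks the path of Cldn16 and Cldn19, had at most 0.169 CPM in any library and was not tested.

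**Figure D2:**
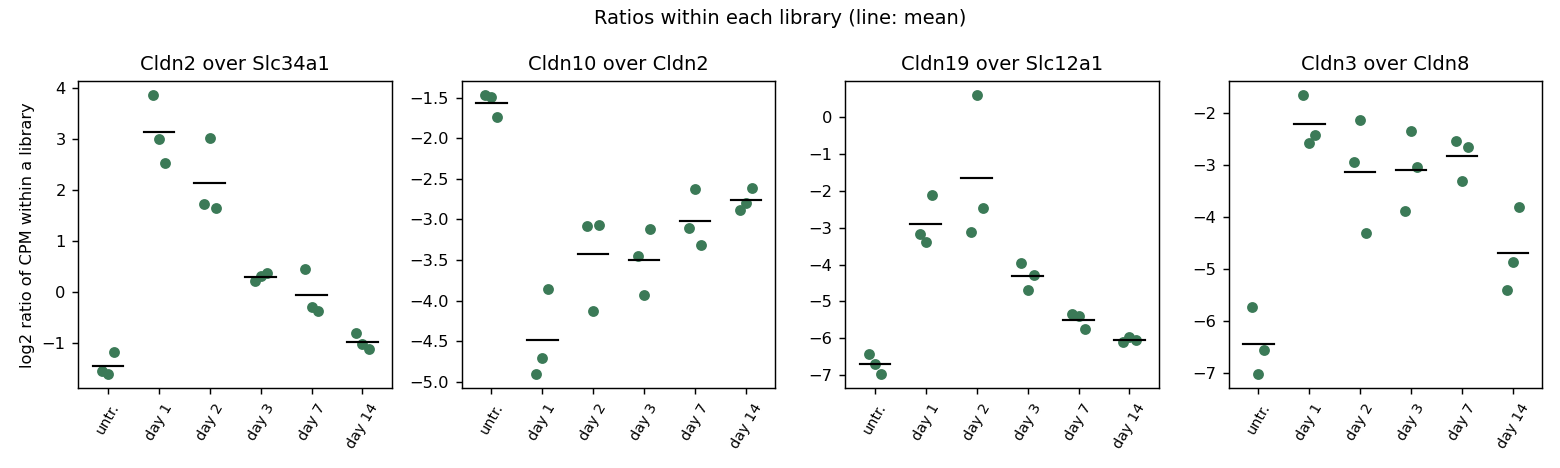
Log2 ratio of CPM of 2 genes within each library (vertical axis, 0.1 CPM added to both), for the 6 groups, with 3 libraries as points and their mean as a line. The ratio of Cldn2 to Slc34a1 went from -1.45 in untreated kidney to 3.13 at day 1, and that of Cldn10 to Cldn2 from -1.57 to -4.49.

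Of the sealing claudins, Cldn1 (ENSMUSG00000022512) rose in all libraries from day 1 to day 7. It was at 10.5, 15.6 and 19.98 CPM in untreated kidney, 84.9, 141 and 89.2 at day 1, and 99.4, 44.3 and 92.6 at day 2. At day 3 it was at 61.5, 90.3 and 71.5 CPM, at day 7 at 53.4, 72.2 and 71.1, and at day 14 at 21.3, 22.7 and 35.1. The lowest library of days 1 to 7, day 2 replicate 2, was above every day 14 library. The log2 fold change was 2.77 ± 0.35 at day 1 (6.84-fold higher, adjusted p = 4.75e-05), 2.36 ± 0.34 at day 2 (adjusted p = 0.000168), 2.28 ± 0.34 at day 3 (adjusted p = 0.00051) and 2.09 ± 0.34 at day 7 (adjusted p = 0.00101). At day 14 it was 0.78 ± 0.33 (adjusted p = 0.253), although all 3 libraries were above the untreated ones. From day 2 to day 14 Cldn1 fell 3.00-fold (log2 fold change -1.58 ± 0.33, adjusted p = 0.00639), and it was the one of the 10 genes called in that comparison, where 9.43% of all genes were (4.68% higher and 4.74% lower). In a fit of these 2 groups alone this call was lost (adjusted p = 0.0751).

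Cldn3 (ENSMUSG00000070473), a sealing claudin of the distal nephron, rose from a very low level and was highest on average at day 7. It was at 0.761, 0.190 and 0.376 CPM in untreated kidney, from 14, 8 and 6 reads. It was at 4.02, 1.60 and 3.00 CPM at day 1, 3.30, 2.20 and 1.27 at day 2, and 1.36, 4.21 and 1.92 at day 3. At day 7 it was at 6.45, 2.99 and 4.93 CPM, and at day 14 at 0.737, 0.405 and 1.63, overlapping the untreated range. The log2 fold change was 2.73 ± 0.69 at day 1 (adjusted p = 0.0149), 2.39 ± 0.69 at day 2 (adjusted p = 0.0269), 2.53 ± 0.69 at day 3 (adjusted p = 0.0304) and 3.47 ± 0.71 at day 7 (11.1-fold higher, adjusted p = 0.00504). At day 14 it was 1.10 ± 0.68 (adjusted p = 0.471). The Cldn3 calls of days 1, 2 and 3 were lost without untreated replicate 2 (adjusted p = 0.0822, 0.126 and 0.134), without untreated replicate 3 (0.0605, 0.0918 and 0.102), and without day 1 replicate 1 (0.0566), day 2 replicate 1 (0.103) or day 3 replicate 2 (0.143, log2 fold change 1.93), respectively. They were also lost at days 2 and 3 in a fit of the 2 groups alone (0.0847 and 0.0669) and at day 3 with limma-voom (0.0558), while without untreated replicate 1 the log2 fold change at days 1, 2, 3 and 7 was 3.39, 3.04, 3.17 and 4.13. Cldn3 shares 40 exonic bases with Wbscr25 on the other strand.

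Cldn4 (ENSMUSG00000047501), the sealing claudin of the collecting duct, rose at days 2 and 3. Its level was 1.79, 2.00 and 0 CPM in untreated kidney, where the count of 0 in replicate 3 allows up to 0.188 CPM. It was 6.82, 5.33 and 6.98 CPM at day 1, 21.4, 9.13 and 9.38 at day 2, and 5.54, 8.22 and 13.3 at day 3. At day 7 it was 5.30, 4.49 and 4.75 CPM, at day 14 3.08, 1.66 and 7.09. The libraries of days 1 to 7 were all above the untreated ones, and 1 of day 14 was within their range. The log2 fold change was 3.36 ± 0.78 at day 2 (10.3-fold higher, adjusted p = 0.00789) and 2.79 ± 0.76 at day 3 (adjusted p = 0.031). It was 2.29 ± 0.75 at day 1 (adjusted p = 0.0581), 1.90 ± 0.74 at day 7 (adjusted p = 0.133) and 1.60 ± 0.74 at day 14 (adjusted p = 0.301). The day 3 call of Cldn4 was lost without untreated replicate 1 (0.0738) or 2 (0.0568) or day 3 replicate 2 (0.066) or 3 (0.0935), and both calls in fits of the 2 groups alone (0.078 and 0.104). The day 1 value passed with no low-count filter (adjusted p = 0.0262), with DESeq2 (0.0103) and with limma-voom (0.0403), and the day 7 value passed with DESeq2 (0.0447) and with library totals (0.0425).

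Cldn7 (ENSMUSG00000018569), a sealing claudin of the distal segments and collecting duct, did not pass on any day. It was at 2.39, 1.71 and 1.75 CPM in untreated kidney, and its treated libraries ran from 1.52 CPM at day 14 to 5.07 at day 1. The 3 libraries of day 7, at 2.70, 3.56 and 4.44 CPM, were above the untreated ones, and those of the other days overlapped them. Its log2 fold change was 0.85 ± 0.46 at day 1 (adjusted p = 0.272), 0.84 ± 0.46 at day 2 (adjusted p = 0.25) and 0.87 ± 0.46 at day 7 (adjusted p = 0.281). It was 0.30 ± 0.46 at day 3 and 0.24 ± 0.46 at day 14.

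Cldn8 (ENSMUSG00000050520), a claudin of the distal nephron that partners claudin 4 in the collecting duct, fell at day 1, the opposite direction to Cldn1 and Cldn3. It was at 45.2, 37.5 and 44.7 CPM in untreated kidney, 12.9, 9.99 and 16.4 at day 1, 26.2, 9.97 and 27.0 at day 2, and 21.5, 21.7 and 16.4 at day 3. At day 7 it was at 38.0, 30.3 and 31.3 CPM and at day 14 at 35.1, 14.5 and 24.0. One day 7 library was within the untreated range and the other 14 treated libraries were below it. The log2 fold change was -1.70 ± 0.36 at day 1 (3.24-fold lower, adjusted p = 0.00463), -0.998 ± 0.36 at day 2 (adjusted p = 0.0722) and -1.10 ± 0.36 at day 3 (adjusted p = 0.0678). It was -0.35 ± 0.35 at day 7 (adjusted p = 0.63; 0.33 with library totals) and -0.79 ± 0.35 at day 14 (adjusted p = 0.283). DESeq2 called Cldn8 at day 2 (adjusted p = 0.0366) and day 3 (0.0216), and the day 3 value also passed with limma-voom (0.0412), with a filter at a mean of 1 CPM (0.0482) and in a fit of the 2 groups alone (0.0195).

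The ratio of Cldn3 to Cldn8, both of the distal segments, moved by several log2 units. It was -6.43 ± 0.66 in untreated kidney, and -2.21 ± 0.49, -3.13 ± 1.10, -3.09 ± 0.77, -2.83 ± 0.41 and -4.68 ± 0.81 on days 1, 2, 3, 7 and 14 (n = 3). Every treated library was above the highest untreated one, -5.72. The pair joins a gene that rose with one that fell, so the shift restates those changes and adds no support to them. The untreated ratios rest on 14, 8 and 6 reads of Cldn3, with 0.1 CPM added to both genes. Against Slc12a3, the salt transporter of the distal convoluted tubule, the log2 ratio of Cldn8 was -1.71 ± 0.28 in untreated kidney, and -2.57 ± 0.43, -2.33 ± 0.71, -1.95 ± 0.34, -2.55 ± 0.19 and -2.99 ± 1.07 on days 1, 2, 3, 7 and 14. In this ratio days 1 and 7 lay below the untreated libraries, and days 2, 3 and 14 overlapped them. Aqp2, the water channel of the principal cell, was at 53.2, 18.9 and 6.39 CPM in the untreated libraries. With that spread the log2 ratio of Cldn8 to Aqp2 was 1.18 ± 1.52 there. Of 9 principal cell markers tested, 4, 3, 2, 1 and 0 fell on days 1, 2, 3, 7 and 14, and of 8 markers of the distal convoluted and connecting tubule, 6, 5, 5, 0 and 0 fell. The share of all genes tested that fell was 5.56%, 5.98%, 3.43%, 3.85% and 0.309% on those days, so counts of 1 or 0 are near the background. Markers of the urothelium, which also makes Cldn3, Cldn4 and Cldn7, were low: the 9 genes summed to 4.40 to 7.30 CPM in untreated libraries, 8.73 to 30.4 at day 1, 3.65 to 15.5 at day 2, 11.2 to 24.8 at day 3, 6.52 to 13.4 at day 7 and 3.20 to 10.5 at day 14. Krt20, which injured tubule also expresses, was the 1 of the 9 that rose, at 0.109, 0.238 and 0 CPM in untreated and 27.5, 4.27 and 7.66 CPM in day 1 libraries (log2 fold change 6.52 ± 1.33, adjusted p = 0.00323). The part of urothelium in the levels of Cldn3 and Cldn4 was not tested.

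**Figure D3:**
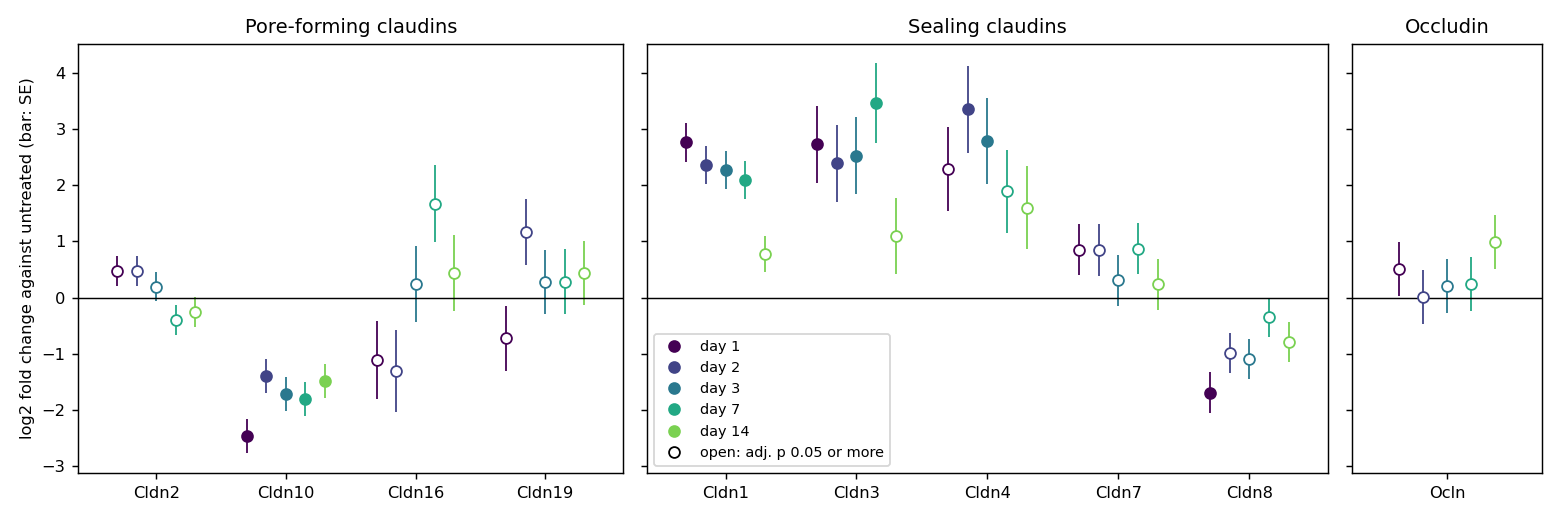
Log2 fold change against untreated kidney (vertical axis) with its standard error (bars) for each claudin and occludin on days 1, 2, 3, 7 and 14, with filled points for an adjusted p under 0.05 in edgeR's test and open points otherwise. Cldn1, Cldn3 and Cldn4 among the sealing claudins have filled points above 0, and Cldn8 at day 1 and Cldn10 on all 5 days have filled points below 0.

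The promoters of the 3 sealing claudins that rose are shown because all 3 genes were called higher at days 2 and 3. Their courses differed, with Cldn4 highest on average at day 2 and Cldn3 at day 7. They are the RefSeq sequences of the 250 bases up to the start site in GRCm38.p6, 5′ to 3′ on the gene's strand: chr16:26371840-26372089 on the minus strand for Cldn1, chr5:134985964-134986213 on the plus strand for Cldn3 and chr5:134946935-134947184 on the minus strand for Cldn4. Cldn3 and Cldn4 are close neighbours on chromosome 5. Capitals mark matches, on either strand, to the AP-1 letters TGANTCA (in 6.75% of 32851 promoters of this length), the E-box CAGGTG of SNAI1 (17.2%), the GC box GGGCGG (32.7%), the TATA box TATAAA (12.4%), and the GRHL2 letters AACCNGTT (1.79%).
Cldn1: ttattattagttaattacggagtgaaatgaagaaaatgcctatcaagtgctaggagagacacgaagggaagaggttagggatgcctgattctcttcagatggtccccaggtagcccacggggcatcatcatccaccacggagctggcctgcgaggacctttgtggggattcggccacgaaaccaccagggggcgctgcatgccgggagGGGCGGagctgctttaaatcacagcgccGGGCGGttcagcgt
Cldn3: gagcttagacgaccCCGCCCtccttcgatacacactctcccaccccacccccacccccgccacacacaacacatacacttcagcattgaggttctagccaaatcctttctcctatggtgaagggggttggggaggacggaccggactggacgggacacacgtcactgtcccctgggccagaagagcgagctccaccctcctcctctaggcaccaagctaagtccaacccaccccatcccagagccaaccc
Cldn4: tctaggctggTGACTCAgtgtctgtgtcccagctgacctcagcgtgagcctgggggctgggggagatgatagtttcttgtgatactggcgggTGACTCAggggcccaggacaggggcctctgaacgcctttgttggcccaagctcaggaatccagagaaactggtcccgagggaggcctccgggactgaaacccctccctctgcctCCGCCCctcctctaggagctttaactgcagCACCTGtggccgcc
Cldn4 held 2 AP-1 matches, 240 and 158 bases before the start, as did 0.338% of all promoters, and also 1 E-box and 1 GC box. Cldn1 held 2 GC boxes, 42 and 14 bases before the start, and Cldn3 held 1, 236 bases before it. The 3 windows thus shared the GC box. It was also held by windows of Cldn7, Cldn19 and Ocln, which did not pass on any day, and of Cldn10, which fell. These letters describe the windows without showing that a factor binds there. Of the 10 genes, 9 had a RefSeq promoter entry, all but Cldn8.

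Ocln (ENSMUSG00000021638), the occludin gene, did not pass on any day. It was at 6.42, 6.73 and 6.14 CPM in untreated kidney, 14.2, 6.12 and 7.22 at day 1, and 11.5, 3.72 and 3.92 at day 2. At day 3 it was at 6.53, 8.60 and 7.16 CPM, at day 7 at 6.97, 8.41 and 7.35, and at day 14 at 7.81, 23.0 and 7.66. One library in each of days 1, 2 and 14 stood well above its group's other two. All libraries of days 7 and 14 lay above the untreated ones, and days 1, 2 and 3 overlapped them. The log2 fold changes were 0.51 ± 0.48, 0.02 ± 0.48, 0.21 ± 0.48, 0.24 ± 0.48 and 0.99 ± 0.48 on days 1, 2, 3, 7 and 14, with adjusted p from 0.332 to 0.989, and the sign of the day 2 value depended on the processing.

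Set side by side as classes, the 5 sealing claudins and the 4 pore-forming claudins had different courses, which are given as a description with no test. The median log2 fold change of the sealing claudins was 2.29, 2.36, 2.28, 1.90 and 0.78 on days 1, 2, 3, 7 and 14, and that of the pore-forming claudins was -0.92, -0.42, 0.22, -0.06 and 0.09. The median of all genes tested lay between 0.03 and 0.07 in those comparisons. Of the sealing claudins 2, 3, 3, 2 and 0 rose and 1, 0, 0, 0 and 0 fell, and of the pore-forming claudins 1 of 4 fell on each day, Cldn10 each time. Of all genes 5.09%, 7.19%, 4.18%, 3.87% and 1.24% rose and 5.56%, 5.98%, 3.43%, 3.85% and 0.309% fell. The sealing median was the value of Cldn1 or Cldn4 on each day. Cldn8 went against the sealing class, with log2 fold changes below 0 on each day and a call at day 1, and Cldn7 did not pass on any day.

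Summed per kb, the sealing claudins were at 23.2 ± 1.71 CPM per kb in untreated kidney, and at 34.9 ± 3.31, 36.1 ± 13.8, 32.0 ± 4.83, 35.9 ± 1.31 and 19.9 ± 5.80 on days 1, 2, 3, 7 and 14 (n = 3). The pore-forming claudins were at 114 ± 3.19, 115 ± 35.4, 124 ± 28.5, 103 ± 13.2, 76.2 ± 3.24 and 80.9 ± 26.2 CPM per kb in the same order, from untreated to day 14. Cldn2 alone held 56.4% of the sum of all 9 claudins in untreated kidney, and 70.5, 66.6, 65.8, 52.5 and 62.9% on days 1, 2, 3, 7 and 14 (means of 3). Sealing claudins held 15.4 to 17.9% of the sum in untreated libraries, 17.3 to 29.3% at day 1, 11.9 to 31.6% at day 2, 22.3 to 25.1% at day 3, 30.8 to 33.7% at day 7 and 11.8 to 32.2% at day 14. Days 3 and 7 lay wholly above the untreated range, and the wide spread of days 2 and 14 took in values below it. The 32.2% of day 14 was that of replicate 3, and the other two were at 19.4 and 11.8%. Of the sealing claudins, Cldn1 went from 2.30 ± 0.67% of all 9 claudins to 15.2 ± 6.43% at day 1 and 12.1 ± 2.20% at day 7. Cldn8 was at 13.1 ± 1.4% in untreated kidney, 3.84 ± 1.37% at day 1, 12.6 ± 1.30% at day 7 and 10.7 ± 4.52% at day 14. The pore-forming Cldn10 went from 24.4 ± 1.79% to 4.14 ± 1.46% at day 1 and 11.8 ± 0.82% at day 14.

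**Figure D4:**
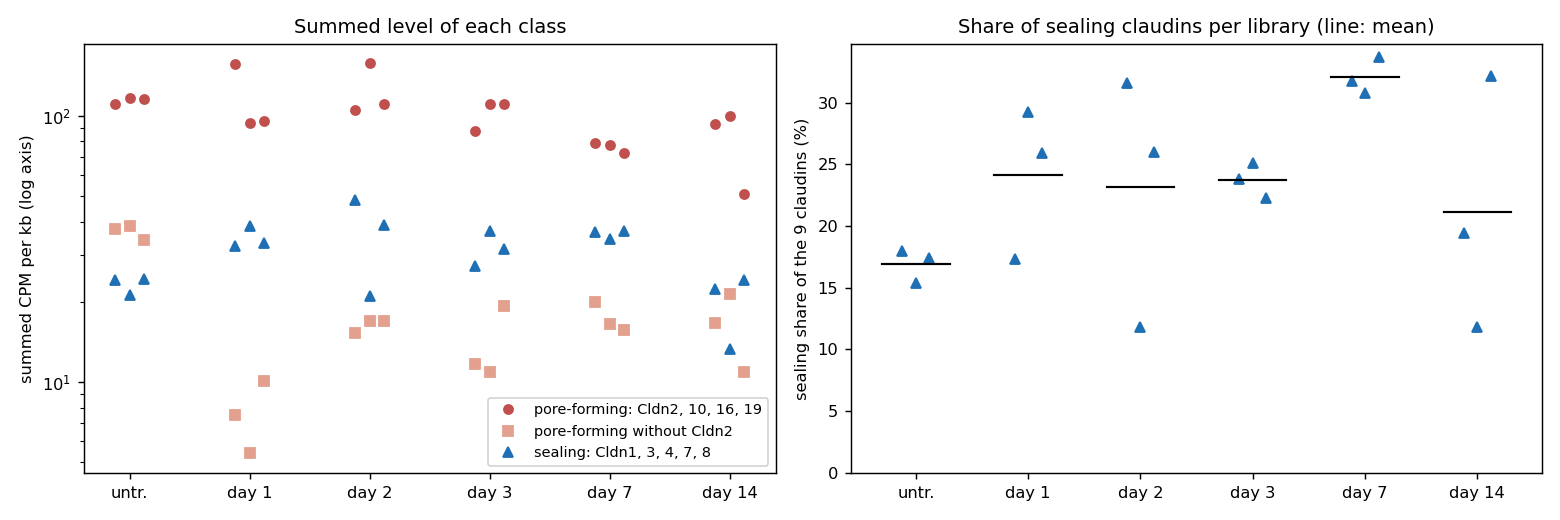
Left, summed CPM per kb (log axis) of the 4 pore-forming claudins, the same without Cldn2, and the 5 sealing claudins in each library; right, the share of the 9 claudins' sum held by the sealing claudins (percent, axis from 0), with group means as lines. The share was 15.4 to 17.9% in untreated libraries and 30.8 to 33.7% at day 7.

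Other claudins gave few calls. Of 13 listed, 4 passed the filter on low counts, and those with a mean of at least 1 CPM were Cldn6, Cldn12 and Cldn15. Cldn6, a claudin of embryonic epithelium, was at 0.489, 1.17 and 0 CPM in untreated kidney and at 5.90, 4.89 and 3.54 at day 3 (log2 fold change 3.02 ± 0.79, adjusted p = 0.0258). Cldn15, a pore-forming claudin of the intestine, was at 3.10, 6.97 and 2.00 CPM in untreated kidney and at 0.265, 0.507 and 0.653 at day 2 (log2 fold change -3.12 ± 0.71, adjusted p = 0.00705). It was lower at day 3 too (log2 fold change -2.22 ± 0.66, adjusted p = 0.0459). Cldn12 was at 52.8 ± 23.2 CPM in untreated kidney and did not pass on any day.

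Of 22 partners of the tight junction, 4, 5, 2, 1 and 0 rose on days 1, 2, 3, 7 and 14, and the other members did not pass in those comparisons. The median log2 fold change of the 22 was 0.27, 0.45, 0.29, 0.24 and -0.05. Of all genes tested, 5.09%, 7.19%, 4.18%, 3.87% and 1.24% rose on those days, so the 1 of 22 at day 7 was near the background. Lsr, which encodes angulin 1 of the junctions where 3 cells meet, rose from 2.84 ± 0.32 to 12.2 ± 1.06 CPM at day 1 (log2 fold change 2.10 ± 0.34, adjusted p = 0.000466) and was called through day 7. Marveld3, a relative of occludin, rose from 1.56 ± 0.44 to 5.69 ± 1.49 CPM at day 1 (log2 fold change 1.86 ± 0.54, adjusted p = 0.0339). Cgn, which encodes cingulin, was at 7.38, 32.6 and 7.53 CPM at day 2 against 3.71 ± 0.68 in untreated kidney (log2 fold change 2.071 ± 0.57, adjusted p = 0.0203), so that replicate 2 carried much of its mean. Without that library the day 2 call of Cgn was lost (log2 fold change 0.995, adjusted p = 0.225), and 2 of the 22 rose at day 2.

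Of 15 genes of the adherens junction and desmosome, 2, 2, 0, 1 and 0 rose on those days, where 5.09%, 7.19%, 4.18%, 3.87% and 1.24% of all genes did, and counts of 1 or 0 of 15 are near that background. Pkp2, the desmosomal plakophilin 2, was at 10.2 ± 3.08 CPM in untreated kidney, 23.9 ± 5.56 at day 1 and 40.5 ± 23.9 at day 2 (log2 fold change 1.98 ± 0.39, adjusted p = 0.00238). Ctnnb1, which encodes beta-catenin, rose at day 1 (log2 fold change 1.17 ± 0.28, adjusted p = 0.0107), with libraries at 241, 110 and 113 CPM against 57.6, 80.2 and 68.5. Dsp, desmoplakin, rose at day 2 (log2 fold change 1.13 ± 0.31, adjusted p = 0.0202) and at day 7 (1.08 ± 0.31, adjusted p = 0.0373). Without day 2 replicate 2, 1 of the 15 rose at day 2: the call of Dsp was lost (log2 fold change 0.95, adjusted p = 0.0777) and that of Pkp2 was kept (1.4, adjusted p = 0.0171).

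Of 16 genes known to act on claudins, 2, 2, 1, 2 and 0 rose and 4, 4, 3, 1 and 0 fell on those days. Of all genes 5.09%, 7.19%, 4.18%, 3.87% and 1.24% rose and 5.56%, 5.98%, 3.43%, 3.85% and 0.309% fell, so that counts of 1 of 16 were near the background. Elf3, a transcription factor of epithelia, was at 0.723 ± 0.392 CPM in untreated kidney and at 12.2 ± 6.82 at day 3 (log2 fold change 4.03 ± 0.65, adjusted p = 0.000917), and was called from day 1 to day 7. St14, the membrane protease matriptase, rose at day 1 (log2 fold change 1.32 ± 0.41, adjusted p = 0.0447) and day 7 (1.73 ± 0.41, adjusted p = 0.0144). Vdr, the vitamin D receptor, fell from 182 ± 34.6 to 46.5 ± 2.99 CPM at day 1 (log2 fold change -1.97 ± 0.26, adjusted p = 8.49e-05) and was lower through day 7.

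The genes whose levels ran most like each member's were sought over the 18 libraries among 7744 genes, by Pearson's r of log2 CPM, as a description of libraries that share the same 6 groups. Cldn1 ran with Pvr (r = 0.93), Set and Myof (both 0.92), Cldn3 with Birc3 (0.88), Krt20 and Anxa3 (both 0.84), and Cldn4 with Rrm2, Jun (both 0.88) and Clcf1 (0.87). Cldn10 ran with Vdr (0.91) and Cryl1 (0.89), and Cldn8 with Unc5c (0.81), Slc23a1 and Gab1 (both 0.78). Cldn2 ran with Eno1 (0.88), Prdx1 (0.87) and Cd63 (0.84), none of them a transporter of the proximal tubule. The best r of Cldn7 was 0.77 with Eri1, of Cldn16 0.80 with Clk4, of Cldn19 0.82 with Ptgs1 and of Ocln 0.85 with Thsd7a.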

How the data were processed

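Whole-kidney RNA was made into amplified libraries, per the labels' protocols. Per the submitters' processing notes, cutadapt, TopHat2 2.07, HTSeq and DESeq were used with build NCBIM37; whether counting used strand is not given in the sources used here. The authors deposited raw read counts per gene for 37991 identifiers, which were used for every test, and a normalized signal, the counts divided by 1 size factor per library, which was read as a check. The 5 tally rows without a gene equalled 34.5 to 51.3% of a library and were left out. Symbols and the exon lengths for CPM per kb came from GENCODE M21, which is on a later build than NCBIM37. The promoter coordinates are on GRCm38.p6 and not on the build of the counts.

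Counts were fitted with edgeR 4.0.16 in 1 fit over 18 libraries and 6 groups, with TMM scaling, filterByExpr and the quasi-likelihood F test; p-values are two-sided and adjusted over 16824 genes. Alternatives were other scalings and filters, DESeq2 1.42.0, limma-voom 3.58.1, a replicate block, 2-group fits and leaving out each library of the 2 groups compared. Simulated counts for day 1 against untreated (16534 genes) gave 2%, 52%, 82% and 98% of 2-, 4-, 8- and 16-fold changes. Only 50 genes were changed at each fold, all with a mean above 2 CPM, where the real comparison called 1792 genes. With so few changed genes the adjustment is stricter than in the data, so these are not the recovery rates of the real comparison. No library copied another. After each gene's group mean was taken off its log2 CPM, same-numbered libraries of different groups correlated at -0.0543 to 0.0416. The labels do not say whether the numbers pair samples, and these values cannot exclude it. Genes named from a list were up to 4 of its largest called changes with 5 CPM or more in the higher group; Slc34a1, Lrp2, Umod, Slc12a3, Cldn5 and Cldn14 were named outside that rule, after their values were seen. Some genes that the naming rules select are not reported here. The members, lists and rules were chosen with earlier results of these data known; counts without day 2 replicate 2 or day 14 replicate 3 were added after seeing the data. Floors (3 counts) cover counting error only. The ± of a log2 fold change is the SE of the fit, and any other ± is an SD over libraries. Both hold the spread among libraries. R 4.3.3 and Python 3.11.15 were used.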

Additional observations from a re-analysis of the deposited data

Results flagged for a closer look

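The effect of folic acid on Cldn1 differed between day 2 and day 14: the log2 level at day 14 minus that at day 2 was -1.58 ± 0.33 (SE; adjusted p = 0.00639, edgeR). All 3 libraries of day 14 (21.3, 22.7 and 35.1 CPM) were lower than all 3 of day 2 (99.4, 44.3 and 92.6 CPM). This was a test of the difference itself. In a fit of these 2 groups alone it did not pass (adjusted p = 0.0751).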

How the results depend on the processing

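The values counted here are those of a member in a comparison, with day 14 against day 2 included. Of 17 called values, 230 of 255 alternatives kept the call, 25 lost it and 0 reversed it. Of 43 values not called, 14 of 645 alternatives gained a call. Leaving out 1 library was read, here and below, only for libraries of the 2 groups compared. It gave 1164 to 1379 called genes at day 1 (3 to 4 members), 1453 to 2005 at day 2 (3 to 4) and 614 to 1046 at day 3 (2 to 4). At day 7 it gave 607 to 1014 (3 in each), at day 14 106 to 351 (0 to 1) and for day 14 against day 2 865 to 1434 (1 to 2). Without day 2 replicate 2, a library of neither group, the day 3 comparison called 1 sealing claudin lower, where all libraries gave 0. Library totals gave 2238 at day 3, 2565 at day 7 (5 members) and 435 at day 14 (0 members), and moved the median of all genes by 0.143, 0.254, 0.577, 0.673 and 0.317 on days 1, 2, 3, 7 and 14. The share of called genes that were higher was then 69.0, 91.2, 93.2 and 95.9% on days 2, 3, 7 and 14, against 54.6, 54.9, 50.2 and 80.0%. DESeq2 gave 2172, 2162 and 914 at days 3, 7 and 14, 2510 for day 14 against day 2 and 5365 over the 6 groups; limma-voom gave 998 and 2101 for the last 2. Fits of 2 groups gave 1186 at day 2 (2 members), 71 at day 14 (0) and 325 for day 14 against day 2 (0), and no low-count filter 480 at day 14. The causes were not tested. Reversed values all missed the threshold. For Ocln at day 2 they were -0.0117 with DESeq2's size factors, -0.0161 at a mean of 1 CPM and in 2 groups, -0.0097 with DESeq2 and -0.0505 with the block, and -0.751 to 0.282 on leaving out a library. Library totals gave 0.285 (Cldn2) and 0.333 (Cldn8) at day 7 and 0.0321 (Cldn2) at day 14. Leaving out a library gave -0.375 to 0.570 (Cldn16) and -0.0413 to 0.596 (Cldn19) at day 3, -0.564 to 0.776 (Cldn16) at day 14, and for day 14 against day 2 -0.137 to 0.480 (Cldn8), -1.13 to 0.0877 (Cldn19) and -0.232 to 0.112 (Cldn10). Whether the replicate numbers pair samples is not given. The fit with a replicate block gave 1571, 1895, 1040, 1078 and 193 called genes on the 5 days, 1235 for day 14 against day 2 and 2277 over the 6 groups. It gained Cldn8 at day 2 (adjusted p = 0.0406) and lost Cldn4 at day 3 (0.0543). Depth limits Cldn3, Cldn4, Cldn7 and Cldn16 most, with as few as 6, 0, 11 and 10 reads in a library.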

Other observations

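Cldn5, the claudin of endothelium, was near the limit of detection at 0.492 ± 0.419 CPM in untreated kidney and 0.1 ± 0.114 at day 2 (log2 fold change -1.92 ± 1.16, adjusted p = 0.309). Of 8 endothelial markers, 4, 5, 6, 1 and 0 fell on days 1, 2, 3, 7 and 14. Of all genes tested, 5.56%, 5.98%, 3.43%, 3.85% and 0.309% fell on those days, so the 1 of 8 at day 7 was near the background. Kdr, the VEGF receptor of blood vessels, fell from 21.1 ± 7.74 to 2.11 ± 0.97 CPM at day 2 (log2 fold change -3.26 ± 0.44, adjusted p = 8.36e-05), and Emcn, which encodes endomucin, from 32.5 ± 14.6 to 4.79 ± 0.53 CPM (log2 fold change -2.77 ± 0.39, adjusted p = 0.000122).

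Of 8 intercalated cell markers, 1, 2, 1, 0 and 0 fell on days 1, 2, 3, 7 and 14, where 5.56%, 5.98%, 3.43%, 3.85% and 0.309% of all genes did. Counts of 1 or 0 of 8 are near that background, and without day 2 replicate 2 the day 2 count was 1. Slc4a1, the anion exchanger of the acid-secreting cells, was at 11.8 ± 1.96 CPM in untreated kidney and 1.04 ± 0.78 at day 2 (log2 fold change -3.35 ± 0.80, adjusted p = 0.00976). Trpv5, the calcium channel of the distal convoluted and connecting tubule, went the other way from its list: it was at 11.3, 4.59 and 4.38 CPM in untreated kidney and at 25.1, 190 and 14.7 CPM at day 2 (log2 fold change 3.50 ± 0.79, adjusted p = 0.00671). Its 190 CPM came from day 2 replicate 2, the smallest library, in which Cldn19 and Cgn were also highest. Without that library the call of Trpv5 was lost (log2 fold change 1.55, adjusted p = 0.103). St6gal1 went against the principal cell list, rising from 3.03 ± 0.47 to 16.1 ± 5.46 CPM at day 3 (log2 fold change 2.41 ± 0.38, adjusted p = 0.000809), and it was called on all 5 days. Its day 14 call (log2 fold change 1.57, adjusted p = 0.04) was lost without day 14 replicate 3 (1.59, adjusted p = 0.103).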
